A study of Mus musculus with 16 samples.

Results

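The glutathione peroxidase genes *Gpx1*, *Gpx2*, *Gpx3*, *Gpx4*, *Gpx7* and *Gpx8* were taken from the liver expression table by their symbols, which gave 6 of the 18209 genes with an identifier. Of these, 4 (*Gpx1* to *Gpx4*) encode enzymes with selenocysteine at the active site and 2 (*Gpx7* and *Gpx8*) encode enzymes with cysteine there. Glutathione peroxidases reduce hydroperoxides, and the selenocysteine members do so at the expense of glutathione. GPX1 is the abundant cytosolic and mitochondrial form of the liver, GPX2 is best known from the gut epithelium, GPX3 is the secreted plasma form made largely by the kidney, and GPX4 reduces phospholipid hydroperoxides in membranes and restrains ferroptosis. GPX7 and GPX8 reside in the endoplasmic reticulum and take part in oxidative protein folding. Selenocysteine is inserted at a UGA codon by a dedicated tRNA, encoded by *Trsp*. Where it is lacking the UGA can be read as a stop, and nonsense-mediated decay is known to remove some selenoprotein mRNAs in that state.

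RNA of 16 livers, with 4 mice in each of 4 genotypes, was sequenced at 20 days of age. All mice carried the floxed *Trsp* allele on both chromosomes. The controls had this allele alone (label *Trsp* fl/fl, below control livers). The *Trsp* knockout mice (*Trsp* fl/fl::AlbCre) also carried a Cre recombinase driven by the albumin promoter. It is meant to delete the tRNA gene in hepatocytes and to leave it in the other cells of the liver. The *Keap1* mutant mice (*Keap1* C226S&C613S homo::*Trsp* fl/fl) had C226S&C613S, a pair of cysteine-to-serine changes in KEAP1, the repressor of the antioxidant transcription factor NRF2, on both alleles in every cell. The compound mutant mice (*Keap1* C226S&C613S homo::*Trsp* fl/fl::AlbCre) combined these changes with the Cre. The controls and the *Trsp* knockout mice had normal *Keap1* (+/+). The reads recovered from the deposited values came to 11386721 to 19164140 per library (median 15509642). They count what was assigned to genes, not all reads sequenced. Hepatocyte marker mRNAs (8 of 8 in the table) summed to 986565 to 2287576 normalized counts per library. Albumin (*Alb*) alone gave a large part of this sum, at 614516 to 1680544, so the sum mainly follows that gene. The tRNA gene *Trsp* itself was not analysed here, so its loss was not checked in these libraries. All mice were labelled male, but replicate 1 of the compound mutant livers went against this label. It had 28799 *Xist* reads where the remaining 15 libraries had between 22 and 50, and 2 reads from 4 Y-linked genes where they had 1830 to 3066. The same library had the lowest hepatocyte sum and the highest sum of erythroid markers, at 96447. Control replicate 3 also stood apart, with 1234 normalized counts of desmin (*Des*) against 58.7 to 193 elsewhere. Results that rest on these 2 libraries are given with and without them. The pair was chosen after seeing the data and holds the highest *Gpx3* values.

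The codon of the catalytic residue is shown for each member, because it is the feature that divides the family. The lines below give the coding strand 5′ to 3′ from the mouse genome (build GRCm38, GENCODE annotation M21), with 18 bases on either side and the codon in capitals.
Gpx1: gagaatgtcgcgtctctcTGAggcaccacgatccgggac
Gpx2: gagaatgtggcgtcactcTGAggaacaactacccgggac
Gpx3: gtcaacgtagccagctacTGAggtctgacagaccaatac
Gpx4: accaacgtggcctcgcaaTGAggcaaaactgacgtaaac
Gpx7: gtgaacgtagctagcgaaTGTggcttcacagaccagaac
Gpx8: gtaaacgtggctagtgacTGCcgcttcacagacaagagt
Of the 36 flanking bases, *Gpx2* shared 30 with *Gpx1*. The count was 19 for *Gpx7*, 18 for *Gpx4*, and 16 each for *Gpx3* and *Gpx8*. The selenocysteine codon TGA stands at codon 47 of *Gpx1*, 40 of *Gpx2*, and 73 of both *Gpx3* and *Gpx4*, while *Gpx7* has the cysteine codon TGT at codon 56 and *Gpx8* has TGC at codon 79.

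The genes differ in how the codon lies relative to exon junctions. The position matters as background, since a stop codon well upstream of an exon junction is the usual signal for nonsense-mediated decay. *Gpx1* (chr9:108338903-108340343, plus strand) has 2 exons, and its TGA lies in exon 1, 105 bases before the single junction of the mRNA. *Gpx2* (chr12:76792333-76795554, minus strand) has the same layout, with the TGA 102 bases before its single junction. *Gpx3* (chr11:54902453-54910377, plus strand) has the TGA in exon 2 of 5, with 3 junctions downstream, the last one 240 bases away. *Gpx4* (chr10:80047166-80056439, plus strand) has it in exon 3 of 7, with 4 junctions downstream, the last one 342 bases away. All 4 selenocysteine codons lie upstream of a junction, at these different distances, and the part of the layout in the results was not tested. In *Gpx7* (chr4:108400390-108406961, minus strand) and *Gpx8* (chr13:113042753-113046410, minus strand) the cysteine codon lies in exon 2 of 3, 229 bases before the last junction. *Gpx2* overlaps *Fntb* and *Gpx8* overlaps *Cdc20b* on the opposite strand. The library kit kept strand, but whether the quantification used it is not given in the sources used here, so reads of these partners may not be told apart.

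**Figure D1:**
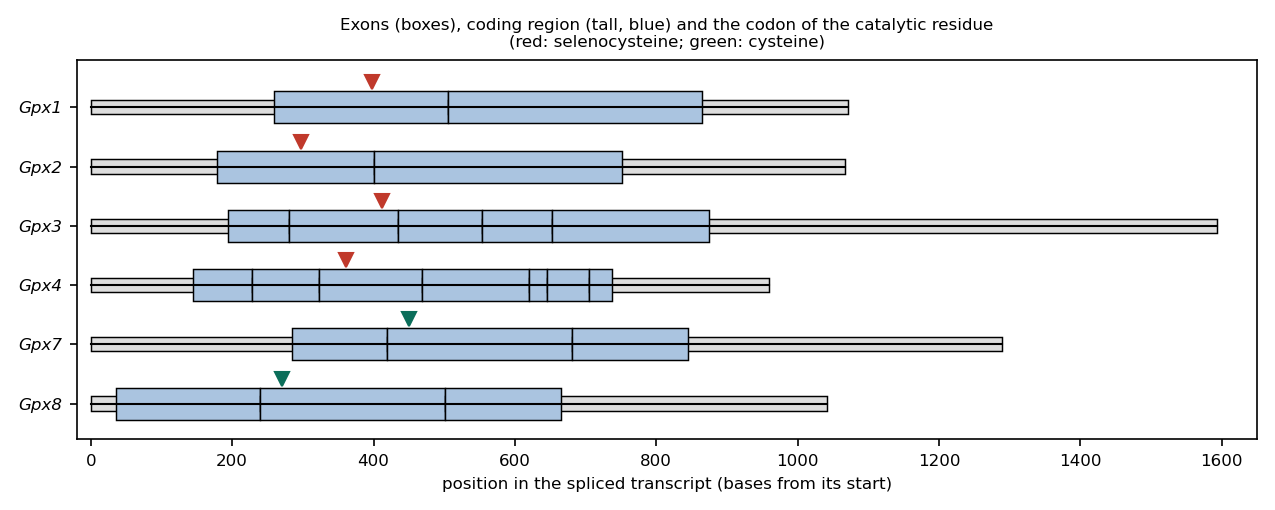
Spliced transcripts of the 6 genes, drawn to scale in bases from the transcript start, with exons as boxes, the coding region in blue and the codon of the catalytic residue as a triangle (red, selenocysteine; green, cysteine). The TGA lies before the last junction in all 4 selenocysteine members, by 105 bases in *Gpx1* and 342 bases in *Gpx4*.

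The core of the antioxidant response element that NRF2 binds (TGACNNNGC, searched on both strands) was looked for in the RefSeq promoter windows of 250 bases before to 50 bases after each start (GRCm38.p6). All 6 genes were matched, with 9 windows. The motif was in 0 of the 9 windows, against 4071 of 32851 windows of all genes (12.4%). This says only that these letters are not in these windows.

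Per kilobase of transcript, *Gpx1* was the most abundant member in all 16 livers and *Gpx4* the next. In control livers *Gpx1* had a mean of 13900 normalized counts per kilobase, *Gpx4* 2060, *Gpx3* 114, *Gpx7* 36.3, *Gpx8* 25.9 and *Gpx2* 2.0. In this genotype the ranges of neighbours in that order did not overlap, except those of *Gpx7* (31.8 to 47.3) and *Gpx8* (17.5 to 36.0). *Gpx1* thus stood 6.75 times above *Gpx4* in the controls. The ratio was 1.55 in *Trsp* knockout livers, 8.23 in *Keap1* mutant livers and 1.95 in compound mutant livers. Even in the tRNA-deficient livers the ranges of *Gpx1* and *Gpx4* stayed apart. The lengths are those of 1 annotated transcript per gene, so a ratio between genes depends on that choice.

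**Figure D2:**
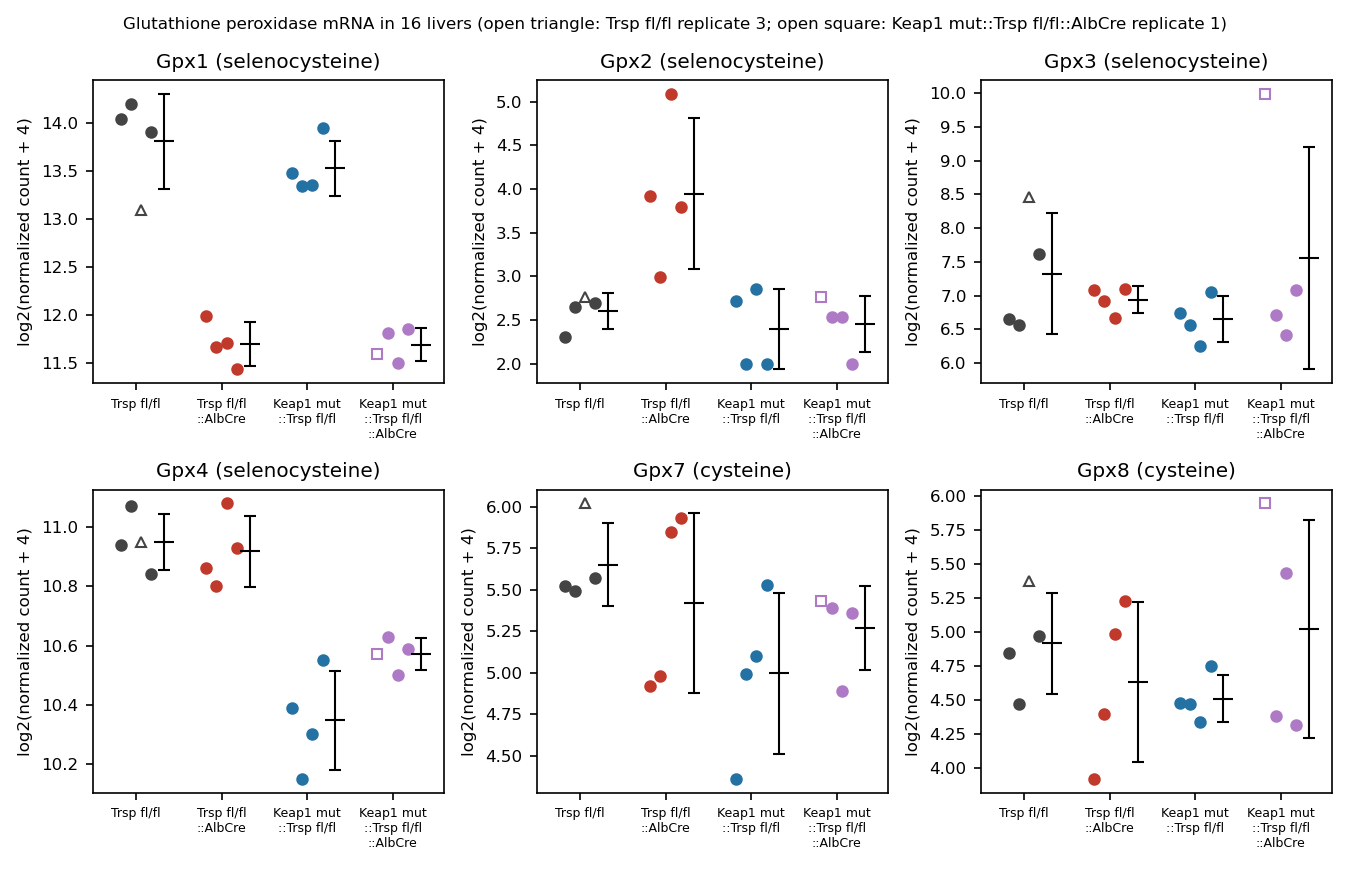
Levels of the 6 genes as log2(normalized count + 4), 1 point per liver, with the mean and SD (n = 4) beside each genotype. *Gpx1* separates the livers with and without AlbCre, *Gpx4* separates those with normal and substituted *Keap1*, and *Gpx3* has 1 liver at 9.99 in the last genotype.

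The first question was what happened to each member when the selenocysteine tRNA was deleted in hepatocytes. *Gpx1* (ENSMUSG00000063856) fell steeply. Its normalized counts were 16878, 18758, 8692 and 15339 in control replicates 1 to 4, and 4060, 3226, 3335 and 2759 in *Trsp* knockout livers. The groups did not overlap, and the lowest control was the replicate 3 that stood apart. The mean fell from 14917 ± 4379 to 3345 ± 538 normalized counts (SD, n = 4 each), leaving 22.4% of the control level. On the log2 scale the change was -2.11 (adjusted p = 6.23e-05 with limma, standard error 0.21), and -2.35 (limma adjusted p = 9.92e-06) without both libraries that stood apart.

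*Gpx1* fell by a similar amount where KEAP1 carried the substitutions. It had 11429, 10372, 10424 and 15836 normalized counts in *Keap1* mutant livers and 3088, 3575, 2888 and 3699 in compound mutant livers. Again every knockout liver was below every liver without Cre, and 27.6% of the mean remained. On the log2 scale it changed by -1.84 (adjusted p = 4.34e-04 with limma, standard error 0.21), and by -1.81 without both libraries that stood apart. The difference between the 2 knockout effects was 0.27 (95% interval -0.37 to 0.90, limma adjusted p = 0.754), so a dependence of the fall on KEAP1 was not detected within that interval.

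*Gpx1* was the single member, of the 5 that passed the filter on low values, that passed both thresholds of the study (log2 fold change beyond 1 in size, limma adjusted p under 0.01) in either knockout comparison. Over all 15781 genes tested, 0.215% were called with normal *Keap1* and 0.171% with the substitutions. At an adjusted p under 0.05 with no fold limit the count of members was again 1 in each, beside 0.558% and 0.798% of all genes. At p under 0.05 before adjustment it was 1 of 5 and 2 of 5, beside 11% and 13.6%. In whole liver, fewer cells of a type and less RNA per cell cannot be told apart, and the *Gpx1* that remained includes that of cells in which AlbCre is not active. Hepatocyte markers summed to 1664283 to 2030616 normalized counts in control livers and 1696260 to 1977393 in *Trsp* knockout livers. In the livers with substituted *Keap1* the sums were 1939454 to 2287576 without AlbCre and 986565 to 1806777 with it. Erythroid markers (9 of 10 in the table, *Ahsp* not among them, none at 0 throughout a genotype) summed to 33917 to 64710 in control livers and 14881 to 35265 in *Trsp* knockout livers. With substituted *Keap1*, where *Gpx1* also fell, they summed to 12930 to 25588 without AlbCre and 15553 to 96447 with it.

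The mRNA of *Gpx4* (ENSMUSG00000075706) did not follow that of *Gpx1*, although it too is read through a TGA. Its normalized counts were 1964, 2144, 1971 and 1828 in control livers and 1852, 1780, 2160 and 1942 in *Trsp* knockout livers, and the groups overlapped almost fully. Its change on the log2 scale was -0.03, with a 95% interval of -0.24 to 0.17 (limma adjusted p = 0.927), and 97.8% of the control mean was measured. This interval bounds the change of the mRNA at a small fraction of the fall of *Gpx1*. It does not speak to protein. By Western blot the study reported less GPX1 and GPX4 protein in livers of both genotypes with AlbCre. With substituted *Keap1* the counts were 1340, 1133, 1254 and 1500 without AlbCre and 1511, 1579, 1443 and 1537 with it. *Gpx4* changed there by 0.22 on the log2 scale (95% interval 0.02 to 0.42, limma adjusted p = 0.318), short of the threshold. The value was 0.35 when the libraries were scaled to their totals (limma adjusted p = 0.0652). It was 0.35 with limma voom, which was scaled to totals as well (adjusted p = 0.0702). The table also lists the *Gpx4* pseudogene *Gpx4-ps2*, at 15 to 52.5 normalized counts per library, and reads shared with *Gpx4* could be split between both.

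*Gpx3* (ENSMUSG00000018339), the secreted form, was set by single livers. It had 96.1, 91.0, 349 and 193 normalized counts in control livers and 132, 117, 97.6 and 133 in *Trsp* knockout livers, with control replicate 3 highest. It had 104, 90.1, 72.6 and 129 in *Keap1* mutant livers and 1015, 101, 81.5 and 132 in compound mutant livers. The value of 1015 belongs to replicate 1, the library that went against its label. The knockout effect was -0.38 (standard error 0.60, limma adjusted p = 0.849) with normal *Keap1* and 0.90 (standard error 0.60, limma adjusted p = 0.558) with the substitutions. Without both libraries that stood apart these became -0.01 and 0.09 (limma adjusted p = 0.997 and 0.949), and in both fits *Gpx3* passed no test. Those libraries hold the highest *Gpx3* values and were chosen after seeing the data. Leaving them out was bound to move both values in these directions. Control replicate 3, the second highest in *Gpx3*, had the highest sum of stellate and other mesenchymal markers (8 of 8 in the table, none at 0 throughout a genotype), at 35474 against 17860 to 24791 in the others. On that list *Lrat*, *Reln* and *Pdgfrb* had their highest values outside the controls, and the rest within them. Of 5 kidney proximal tubule markers 1, *Lrp2*, was in the table, at 132 normalized counts in that library. It had 7.65 to 52.2 in the 3 genotypes other than the controls. Compound mutant replicate 1, the highest in *Gpx3*, had a mesenchymal sum of 24791 and 34 normalized counts of *Lrp2*. The part of these cells in the *Gpx3* values was not tested.

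The cysteine members *Gpx7* (ENSMUSG00000028597) and *Gpx8* (ENSMUSG00000021760) were low and passed no test on the loss of the tRNA. *Gpx7* had 41.9, 41.0, 60.9 and 43.5 normalized counts in control livers and 26.3, 27.5, 53.6 and 57.1 in *Trsp* knockout livers, with overlapping groups and a difference of -0.23 on the log2 scale (95% interval -0.83 to 0.37, limma adjusted p = 0.80). It was -0.11 without both libraries that stood apart, and -0.40 to -0.06 with each library left out in turn. With substituted *Keap1* its range was 16.5 to 42.1 without AlbCre and 25.6 to 39.2 with it, which is 0.27 on the log2 scale (limma adjusted p = 0.739). *Gpx8* had 24.7, 18.2, 37.5 and 27.4 in control livers and 11.1, 17.0, 27.9 and 33.5 in *Trsp* knockout livers, which differed by -0.28 on the log2 scale (95% interval -1.05 to 0.49, limma adjusted p = 0.813). That value was -0.13 without both libraries, and -0.48 to -0.04 with each left out in turn. Its range with substituted *Keap1* was 16.3 to 22.9 without AlbCre and 16 to 57.8 with it, and its log2 fold change there was 0.51 (95% interval -0.26 to 1.28, limma adjusted p = 0.594). The highest of these *Gpx8* values was again compound mutant replicate 1, and without both libraries that stood apart the log2 fold change was 0.20. The intervals of *Gpx7* and *Gpx8* are several times wider than that of *Gpx4*, so small changes of these members were not detectable.

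*Gpx2* (ENSMUSG00000042808) was close to absent and did not pass the filter of 10 normalized counts in at least 4 libraries. It had 1, 2, 3 and 2 reads in control livers, 11, 3, 28 and 10 in *Trsp* knockout livers, 3, 0, 4 and 0 in *Keap1* mutant livers, and 3, 2, 2 and 0 in compound mutant livers. On normalized counts every *Trsp* knockout liver (3.93 to 30) was above every liver of the other 3 genotypes (0 to 3.26). The mean was 13.7 ± 11.3 against 2.13 ± 0.817 in control livers (SD, n = 4 each), with exact two-sided permutation p = 0.0286, the smallest that 4 against 4 livers can give, and 0.0572 adjusted over the 4 comparisons between pairs of genotypes. The comparison of *Trsp* knockout with compound mutant livers (1.60 ± 1.17) gave the same exact permutation p of 0.0286. With limma and no filter neither difference passed (adjusted p = 0.175 and 0.0533). *Gpx2* was looked at this way because its values stood out, and 1 liver with 28 reads carries much of the mean.

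**Figure D3:**
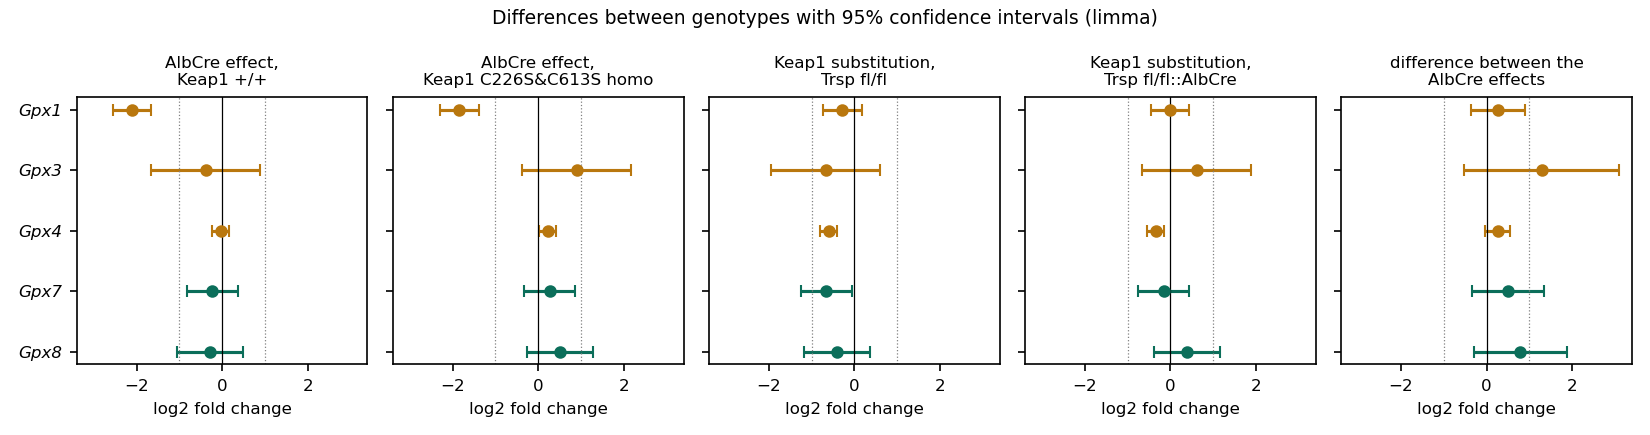
Log2 fold changes of the 5 members that passed the filter, with 95% confidence intervals from limma (ochre, selenocysteine; green, cysteine), in the 5 comparisons named above each panel. Dotted lines mark a log2 fold change of 1 in either direction, and *Gpx1* lies beyond them in the first 2 panels, at -2.11 and -1.84.

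Whether members changed by different amounts was tested within the livers. The log2 value of each other member was subtracted from that of *Gpx1* in the same library, and the differences were compared between livers with and without AlbCre, with the labels permuted within each *Keap1* genotype. *Gpx1* minus *Gpx4* was 2.14 to 3.13 in control livers and 0.51 to 1.13 in *Trsp* knockout livers. It was 3.05 to 3.4 in *Keap1* mutant livers and 1.0 to 1.27 in compound mutant livers. The groups were fully apart in both backgrounds. The knockout effects of *Gpx1* and *Gpx4*, averaged over the backgrounds, were -1.98 and 0.09, and differed by -2.07 (exact two-sided permutation p = 0.000408, the smallest that the 4900 arrangements can give). The 5 pairs gave differences between -2.0 and -2.68, with adjusted p from 0.00102 to 0.00163 over the 5 pairs by the same exact permutation test. The differences were -2.68 against *Gpx2*, -2.23 against *Gpx3*, -2.0 against *Gpx7* and -2.09 against *Gpx8*. On this scale the fall of *Gpx1* exceeded the change of each other member, selenocysteine and cysteine members alike. Against *Gpx2* this was fixed in advance, since its mean was 2.61 in control livers and a count of 0 reads 2.0. The value against *Gpx2* also rests on a few reads and on the constant of 4 added to each count. That constant understates any fall of the low *Gpx7* and *Gpx8* as well.

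**Figure D4:**
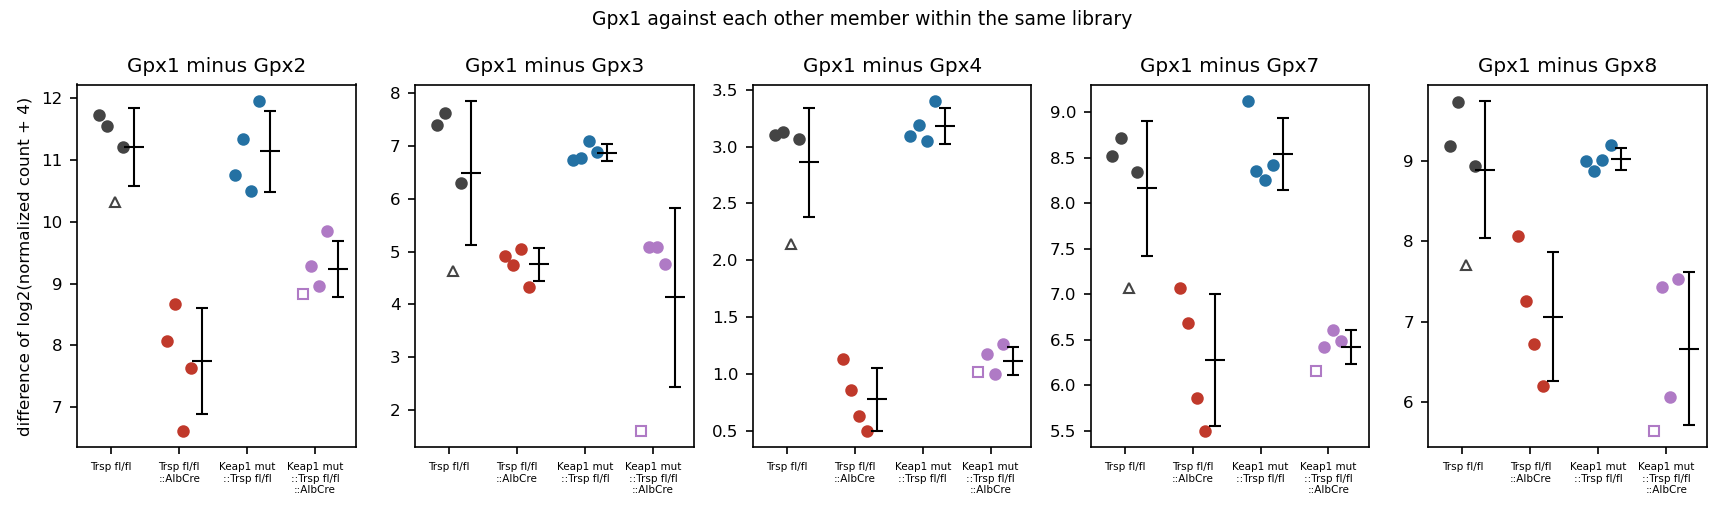
Log2 value of *Gpx1* minus that of each other member in the same library, 1 point per liver, with the mean and SD (n = 4) of each genotype. Livers with AlbCre lie lower in each panel, with some overlap for *Gpx3*, *Gpx7* and *Gpx8* through control replicate 3, and those for *Gpx4* are fully apart, at 0.51 to 1.27 against 2.14 to 3.4.

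The next question was whether the KEAP1 substitutions moved the family in livers with selenoproteins. *Gpx4* was lower. It had 1828 to 2144 normalized counts in control livers and 1133 to 1500 in *Keap1* mutant livers, with no overlap, and 66.1% of the mean remained. The difference was -0.60 on the log2 scale (standard error 0.10, 95% interval -0.80 to -0.40, limma adjusted p = 0.0228). This passed an adjusted p under 0.05 and was below the fold limit of the study. No member was called by the thresholds of the study, beside 0.0127% of all genes, and 1 of 5 passed an adjusted p under 0.05, beside 0.0887%. At p under 0.05 before adjustment 2 of the 5, *Gpx4* and *Gpx7*, passed, beside 9.07% of all genes. Limma voom on the reads gave the same counts of 0 called and 1 at an adjusted p under 0.05. The adjusted p of *Gpx4* ranged from 0.0111 to 0.115 when each library was left out in turn, and was above 0.05 without any of control replicates 1, 2 or 3 (0.0674, 0.0862 and 0.0862) or of *Keap1* mutant replicates 1, 2 or 3 (0.082, 0.115 and 0.0799). Its log2 fold change lay between -0.67 and -0.54 in these fits.

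*Gpx4* was also lower with the substitutions in the tRNA-deficient livers, by less. The range was 1780 to 2160 normalized counts in *Trsp* knockout livers and 1443 to 1579 in compound mutant livers, again with no overlap. This difference of -0.35 on the log2 scale (95% interval -0.55 to -0.14) did not pass (limma adjusted p = 0.0728). It was -0.22 with quantile normalization, with library totals and with limma voom (adjusted p = 0.233, 0.185 and 0.207). The 2 *Keap1* effects on *Gpx4* differed by 0.26 (95% interval -0.03 to 0.54, limma adjusted p = 0.502), so they were not shown to differ.

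The other members passed no test between *Keap1* genotypes. *Gpx7* had a log2 fold change of -0.66 in livers without AlbCre (limma adjusted p = 0.505) and -0.15 in livers with it (limma adjusted p = 0.812). *Gpx8* had -0.40 and 0.39 (limma adjusted p = 0.779 and 0.609), and the second value was 0.08 without both libraries that stood apart. *Gpx3* had -0.67 and 0.61 (limma adjusted p = 0.779 and 0.624), where the second value was -0.20 without both. *Gpx1* had -0.28 (95% interval -0.73 to 0.17, limma adjusted p = 0.725) and -0.01 (95% interval -0.46 to 0.44, limma adjusted p = 0.99). In the tRNA-deficient livers 0 of 5 members were called, beside 0.57% of all genes, and 0 passed an adjusted p under 0.05, beside 2.07%. In that comparison 1 of 5, *Gpx4*, passed p under 0.05 before adjustment, beside 17.6% of all genes, and limma voom called 0. In the interaction 0 of 5 members were called, beside 0.057% of all genes, and 0 passed an adjusted p under 0.05, beside 0.0951%. There 0 of 5 were under 0.05 before adjustment, beside 10.8%, and limma voom called 0. The interaction of *Gpx3* was 1.28 (standard error 0.85, limma adjusted p = 0.584) and became 0.09 without both libraries that stood apart. Those libraries hold the highest *Gpx3* values, so a fall of this value was fixed by the choice.

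The other mRNAs of the selenoprotein class gave the surroundings of the *Gpx1* fall. Of 20 other selenoprotein genes listed, 18 passed the filter. On loss of the tRNA with normal *Keap1* 15 of the 18 had a negative log2 fold change and the median was -0.593, beside -0.015 over all genes tested. Of these 4 fell at a limma adjusted p under 0.05 (*Selenow*, *Selenop*, *Selenot* and *Txnrd2*) and 0 rose, beside 0.558% of all genes. *Selenow*, a small thioredoxin-like selenoprotein, fell by 1.39 on the log2 scale (standard error 0.14, limma adjusted p = 8.2e-05). *Selenop*, the selenium carrier of plasma secreted by hepatocytes, fell by 1.01 (limma adjusted p = 0.0161), *Selenot*, of the endoplasmic reticulum, by 0.83 (limma adjusted p = 9.9e-04) and the mitochondrial thioredoxin reductase *Txnrd2* by 0.69 (limma adjusted p = 0.0132). With substituted *Keap1* the same 4 and *Msrb1*, a methionine sulfoxide reductase, fell at a limma adjusted p under 0.05, beside 0.798% of all genes. There 15 of 18 were negative and the median was -0.517. Without both libraries that stood apart *Msrb1* no longer passed (limma adjusted p = 0.0877). By the thresholds of the study *Selenow* alone was called in the first comparison, and *Selenow* and *Selenop* in the second. Over all genes 0.215% and 0.171% were called. The log2 fold change of *Gpx1* was the lowest among the selenoprotein mRNAs tested in both comparisons, but its 95% interval overlapped those of 4 genes in the first (*Dio1*, *Dio3*, *Selenoh* and *Selenow*) and of the same 4 and *Selenop* in the second. No gene of this list passed an adjusted p under 0.05 between *Keap1* genotypes or in the interaction, with 2 to 5 of 18 under 0.05 before adjustment and 0 with limma voom. Over all genes 9.07% to 17.6% were under 0.05 before adjustment in these comparisons.

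**Figure D5:**
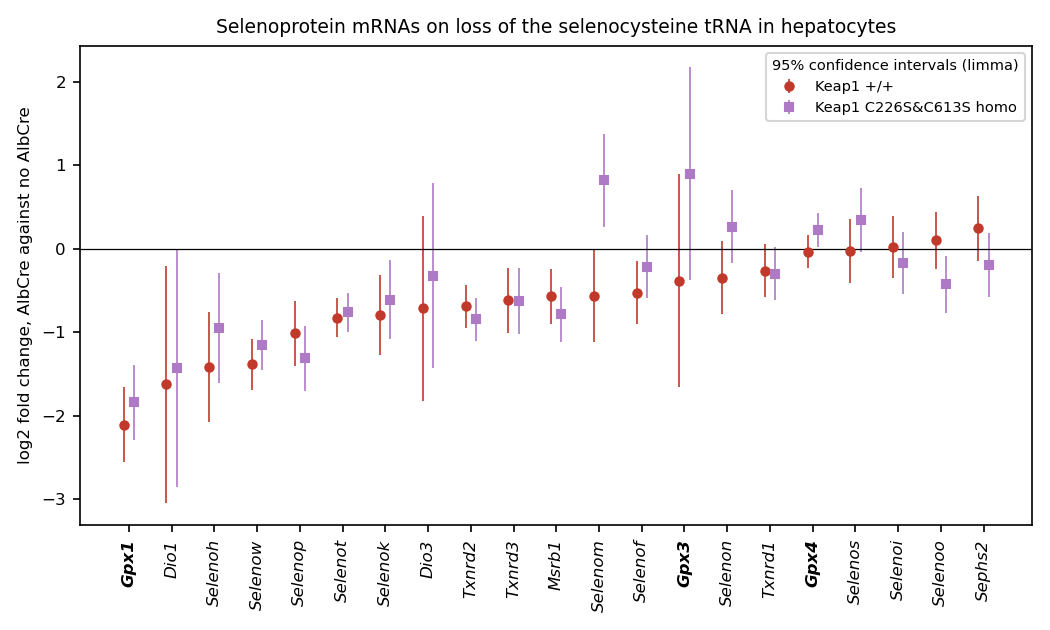
Log2 fold change on loss of the selenocysteine tRNA, with 95% confidence intervals from limma, for the 3 selenocysteine members that passed the filter (bold) and 18 other selenoprotein genes, ordered by the value with normal *Keap1*. *Gpx1* lies at the low end, at -2.11 and -1.84, and *Gpx4* near 0, at -0.03 and 0.22.

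Lists of genes that act beside the family were described in the same way. Of 7 hydroperoxide-removing enzymes without selenium (the peroxiredoxins and catalase), 7 had a positive log2 fold change on loss of the tRNA with normal *Keap1*. Their median was 0.168, beside -0.015 over all genes tested. Yet 0 of them passed a limma adjusted p under 0.05 (0 with limma voom). Before adjustment 2 were under 0.05, beside 11% of all genes. With the substitutions 3 were positive and 0 passed (1 before adjustment, beside 13.6% of all genes, and 0 with limma voom). In the tRNA-deficient livers *Cat*, catalase, was lower with the substitutions, with a log2 fold change of -1.10 (adjusted p = 0.0314, limma). *Cat* had 24749 to 34419 normalized counts in *Trsp* knockout livers and 8130 to 25009 in compound mutant livers, which overlap. Without both libraries that stood apart the change was -0.84 and did not pass (limma adjusted p = 0.0906). The lowest hepatocyte sum was in replicate 1 of the compound mutant livers, as given above, and its part in the result was not tested. Of 6 tested genes of glutathione synthesis and recycling, *Gsr*, which regenerates reduced glutathione, rose by 0.70 on that scale on loss of the tRNA with normal *Keap1* (limma adjusted p = 0.0273). *Gsr* and *Gclc*, the catalytic subunit of glutamate-cysteine ligase, were lower by 0.56 and 1.21 with the substitutions in tRNA-deficient livers (limma adjusted p = 0.0477 and 0.0207). None of these 3 differences passed without both libraries (limma adjusted p = 0.0788, 0.0801 and 0.0806). With limma voom 2 of the 6 passed on loss of the tRNA with normal *Keap1* (*Gsr* and *Gclc*). With the substitutions 2 passed (*Gsr* and *Gss*, where limma passed 0), and *Gclc* alone passed in the last comparison. Limma voom was scaled to library totals. With totals the median log2 fold change of all genes was 0.12 on loss of the tRNA with the substitutions. Of 9 genes of selenocysteine synthesis and insertion, 0 passed an adjusted p under 0.05 in any of the 5 comparisons, with 0 to 3 under 0.05 before adjustment and 0 with limma voom. Of 10 nonsense-mediated decay factors, 0 passed in any of the 5, with 0 to 4 before adjustment and 1 with limma voom, in the *Keap1* comparison of tRNA-deficient livers. Over all genes 9.07% to 17.6% were under 0.05 before adjustment in the 5 comparisons.

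Of 15 NRF2 target genes tested, 9 were called higher on loss of the tRNA with normal *Keap1*, beside 0.19% of all genes, and the median of the 15 was 1.416 on the log2 scale. With the substitutions 4 were called higher, beside 0.0697%. In tRNA-deficient livers 9 were called lower with the substitutions, beside 0.456%, with a median of -1.534. Without both libraries that stood apart the counts were 10, 2 and 8. *Nqo1*, an NAD(P)H quinone oxidoreductase, rose by 2.27 on the log2 scale on loss of the tRNA (standard error 0.21, limma adjusted p = 3.01e-05) and was lower by 2.96 with the substitutions in tRNA-deficient livers (limma adjusted p = 4.37e-07). In that last comparison the 5 tested peroxidase members had log2 fold changes between -0.35 and 0.61, and the filtered-out *Gpx2* had the low values given above. The NRF2 list was chosen with these results known and is given as surroundings only.

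The 3 genes whose log2 values ran most like those of each member over the 16 livers are given as a description. The points share the 4 genotypes, so genes that differ between genotypes in the same pattern correlate for that reason. For *Gpx1* all 3 were selenoprotein genes: *Selenot* (Pearson r = 0.952), *Selenop* (0.928) and *Selenow* (0.906). Without the 2 livers farthest from the median of *Gpx1* the values were 0.935, 0.955 and 0.918. For *Gpx4* they were *Cdkl2* (0.929), *Ndufa4* (0.923) and the carboxylesterase *Ces1g* (0.917). For *Gpx8* they were *Ehd2* (0.913), *Rcn3* (0.899) and *Atp11a* (0.879), and for *Gpx7* they were *Map4* (0.883), *Hacd1* (0.88) and *Mpdz* (0.863). For *Gpx3* they were *Pdzd2* (0.873), *Cyp1b1* (0.866) and *Xist* (0.852). Without the 2 livers farthest in *Gpx3* the first 2 of these became 0.264 and 0.357, so they rest on those livers. *Xist* became 0.739, but it had 22 to 50 reads in the libraries other than compound mutant replicate 1. That value therefore rests on few reads.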

How the data were processed

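The authors sequenced rRNA-depleted liver RNA as paired-end reads, quantified it with Salmon (Galaxy version 1.5.1) against GENCODE mouse transcripts (version 30), and used iDEP. The methods name TPM, but the deposited table holds log2 values made by the authors as log2(normalized count + 4). Undoing this gave whole reads (within 0.02) for 100% of values up to 50 reads in each library. Because the deposited values are log2 values, the planned count test was replaced by limma 3.58.1 (R 4.3.3, with lmFit, contrasts, eBayes with trend). It was run on the log2 values, with 16 libraries in 1 fit, no covariates and Benjamini-Hochberg adjustment over 15781 genes. Limma voom on the recovered reads was run as an alternative. It scaled the libraries to their totals, not to the scaling of the deposited table. It is thus no separate check on scaling beside the alternative with library totals. The constant understates changes of low genes. Genes needed a normalized count of 10 in 4 libraries. The 369 rows without a gene identifier (0.274% to 0.627% of the reads) were left out, and 0 per-sample columns were unused. The labels name no batch and do not state that mice came from separate litters, so p-values measure the spread between these samples. The deposited table holds no coordinates. Coordinates and transcript lengths come from GENCODE M21 (GRCm38), not the authors' version. The fit was tested on simulated data. Permutation tests and tables used Python 3.11.15, pandas 2.3.3 and numpy 2.4.6, and plots matplotlib 3.10.9.

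The members and gene lists were chosen with earlier results of these data known. Named genes are the members, other *Gpx* rows, the 3 genes closest to each member by Pearson correlation, and genes of the lists that passed a test (or a count of 5 or fewer). *Nqo1*, *Dio1*, *Selenoh*, *Alb*, *Des*, *Lrat*, *Reln*, *Pdgfrb* and *Lrp2* serve as examples. *Gpx6*, a family member outside the 6, was listed at 0.932 to 12.5 normalized counts and not tested. Intervals cover 95%. Alternatives were other constants (0.1, 0.5 and 1), filters, scalings and thresholds, voom on recovered reads, the compared groups alone, a replicate block and each library left out.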

Additional observations from a re-analysis of the deposited data

Results flagged for a closer look

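In the 24 groups formed by the 6 members and 4 genotypes, 2 livers lay far from the other 3 of their group, by a gap to the nearest value that, as a share of the group's range, was above Dixon's 95% critical value for 4 samples. Both values are of *Gpx7*. The value of control replicate 3 was 6.02 on the log2 scale, against 5.57 for the next highest (gap 0.85 of the range). The value of compound mutant replicate 3 was 4.89, against 5.36 for the next lowest (gap 0.864 of the range). Chance alone marks about 5% of groups in this way, and no comparison of *Gpx7* passed its threshold with or without either liver.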

How the results depend on the processing

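*Gpx1* was called in both knockout comparisons under every alternative run, with log2 fold changes from -2.35 to -1.98 (limma adjusted p 3.5e-06 to 0.00633) with normal *Keap1* and from -1.91 to -1.70 (1.68e-05 to 0.0054) with the substitutions. With library totals the median of all genes moved by 0.12 and 0.13 on the log2 scale in the comparisons that use the compound mutants. It moved by under 0.1 in the other 2. Limma voom was scaled to library totals as well. Dropping the fold limit at an adjusted p under 0.05 raised the members called between *Keap1* genotypes in livers without AlbCre from 0 to 1, which was *Gpx4*. *Gpx4* there missed 0.05 when only the compared groups were fitted (limma adjusted p = 0.0865), without the trend (0.0726) and without both libraries that stood apart (0.0578, chosen after seeing the data). The pair tests passed with each library left out in turn, with adjusted p of 0.00051 to 0.00327. Within normal *Keap1* alone, where 70 arrangements allow p no lower than 0.0286, the differences of *Gpx1* from *Gpx2*, *Gpx3*, *Gpx4*, *Gpx7* and *Gpx8* were -3.45, -1.73, -2.08, -1.88 and -1.83, with adjusted p of 0.0714, 0.114, 0.0714, 0.0714 and 0.0714. Within substituted *Keap1* they were -1.90 to -2.74, with adjusted p of 0.0286. The difference from *Gpx2* was -3.60 with a constant of 0.1. The signs that turned were of values that passed no test. In the *Keap1* comparison of tRNA-deficient livers *Gpx1* was 0.21 with quantile normalization, 0.12 with library totals, 0.12 with voom, 0.02 without both libraries that stood apart, and -0.10 to 0.09 with each library left out. There *Gpx3* was -0.20 without both libraries and -0.20 to 0.99 with each left out, and *Gpx7* -0.32 to 0.02. The knockout effect on *Gpx4* with normal *Keap1* was -0.09 to 0.01. The causes were not tested. A filter of 50 left 3 members tested. The replicate numbers did not pair the livers (correlations of same-numbered livers -0.315 to 0.163). With the replicate block *Gpx1* kept its log2 fold changes of -2.11 and -1.84 (limma adjusted p = 0.000269 and 0.0015), the counts of members called were 1, 1, 0, 0 and 0, the adjusted p of the pair tests was 0.00977 to 0.0156, and *Gpx4* between *Keap1* genotypes in livers without AlbCre had 0.117.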
